A study of Mus musculus with 6 samples.

Results

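The genes described here are 9 transcription factors and cofactors of the erythroid and megakaryocytic lineages: Gata2, Gata1, Zfpm1, Tal1, Lmo2, Gfi1b, Nfe2, Runx1 and Fli1. They were taken by symbol from the 12 deposited tables, and all 9 were found, of 23538 genes. Bone marrow progenitors of Mof -/+ mice, heterozygous for the gene of the histone acetyltransferase Mof (gene symbol Kat8), and of wild-type mice were sorted into 6 populations of 15 cells per sort and sequenced by CEL-Seq2, a method that counts the 3' ends of messenger RNA. Each genotype was represented by 3 libraries of haematopoietic stem cells (HSC), of the multipotent progenitors MPP2, MPP3 and MPP4, of common myeloid progenitors (CMP) and of megakaryocyte-erythroid progenitors (MEP), 36 libraries in all. HSC and the MPP populations were Sca-1 and cKit positive, whereas CMP and MEP were cKit positive without Sca-1, and MEP lacked CD34. The labels give neither age, sex, strain background nor the kind of Mof allele. They also leave unsaid how many animals stand behind a group, so the p-values measure only the spread between libraries, which may be technical. The libraries came from 6 pools, with a pool for HSC, a pool for the MPP populations and a pool for CMP and MEP in each genotype, so that genotype and pool cannot be told apart. Comparisons of a population with the mean of the other 5 also cross pools, so that population and pool cannot be told apart there either, whereas MEP against CMP and MPP2 against MPP3 and MPP4 stay within the pools.

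GATA factors are zinc-finger proteins that bind GATA motifs in DNA. Gata2 acts in stem cells, early progenitors and mast cells, and Gata1 acts in erythroid cells, megakaryocytes, mast cells and eosinophils. During erythroid maturation Gata1 takes over sites that Gata2 occupied, an exchange known as the GATA switch. Zfpm1 (FOG-1) is the cofactor that Gata1 binds directly. Tal1 (SCL) is a basic helix-loop-helix factor and Lmo2 is a bridging protein without DNA contact, and both join GATA factors in a shared complex. Gfi1b is a repressor needed for red cells and platelets, Nfe2 (the p45 subunit of NF-E2) drives globin and late platelet genes, Runx1 founds the definitive blood stem cells and supports megakaryocytes, and Fli1 is an ETS factor that favours the megakaryocytic over the erythroid fate.

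The members lie on 8 chromosomes (GRCm38, the mm10 build): Gata2 at chr6:88193891-88207032, Gata1 at chrX:7959260-7978071, Zfpm1 at chr8:122282141-122337251, Tal1 at chr4:115056426-115071755, Lmo2 at chr2:103957986-103981878, Gfi1b at chr2:28609450-28621982, Nfe2 at chr15:103248212-103258403, Runx1 at chr16:92601466-92826149 and Fli1 at chr9:32422204-32542861. Annotated genes overlap Zfpm1 on the same strand, Lmo2 and Runx1 on the opposite strand, and Fli1 on both strands. None of these overlapping genes has a line of its own in the tables, and whether the authors counted by strand is not given in the sources used here, so reads of overlapping genes could not be told apart.

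The 250 bases before the annotated start are shown for the members whose level differed between populations by the test described further down (Gata2 with its 2 annotated starts, Gata1 and Gfi1b), 5' to 3' on the strand of the gene, from RefSeq on GRCm38.p6. Capitals mark a GATA word, meaning the words AGATAA and AGATAG or the words TGATAA and TGATAG on either strand. The windows are chr6:88193641-88193890 and chr6:88198414-88198663 on the plus strand for Gata2, chrX:7967911-7968160 on the minus strand for Gata1 and chr2:28621983-28622232 on the minus strand for Gfi1b.
Gata2 first start: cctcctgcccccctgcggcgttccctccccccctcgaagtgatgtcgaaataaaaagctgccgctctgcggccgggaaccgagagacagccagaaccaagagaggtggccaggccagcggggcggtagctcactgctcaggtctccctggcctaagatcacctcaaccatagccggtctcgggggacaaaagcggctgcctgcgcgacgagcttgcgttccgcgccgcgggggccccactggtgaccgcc
Gata2 second start: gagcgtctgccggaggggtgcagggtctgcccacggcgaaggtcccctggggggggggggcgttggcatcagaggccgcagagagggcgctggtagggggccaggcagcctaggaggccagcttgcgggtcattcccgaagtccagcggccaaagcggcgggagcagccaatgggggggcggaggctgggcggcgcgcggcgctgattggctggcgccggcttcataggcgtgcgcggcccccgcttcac
Gata1: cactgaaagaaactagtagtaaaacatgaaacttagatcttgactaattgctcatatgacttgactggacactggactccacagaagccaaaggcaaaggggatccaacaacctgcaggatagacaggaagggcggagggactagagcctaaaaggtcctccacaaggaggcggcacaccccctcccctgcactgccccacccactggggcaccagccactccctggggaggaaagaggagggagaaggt
Gfi1b: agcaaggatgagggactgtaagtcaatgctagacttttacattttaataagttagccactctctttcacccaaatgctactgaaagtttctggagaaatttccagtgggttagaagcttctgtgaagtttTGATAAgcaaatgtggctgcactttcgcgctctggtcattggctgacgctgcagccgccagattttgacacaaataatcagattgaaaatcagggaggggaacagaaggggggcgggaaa
RefSeq windows were matched for 6 of the 9 members, 9 windows in all. Windows of Gfi1b and Tal1 held a GATA word, 2 of the 9, against 26.5% of all 32851 windows of this length, and the windows of Gata2 and Gata1 held none. A match is a match of letters only and says nothing of binding.

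Library totals spanned 1577 to 123765 counts (median 41227), and 6 libraries stood below 15000: the 3 wild-type MPP2 libraries, wild-type MPP3 replicates 1 and 2 and Mof -/+ HSC replicate 2. Kat8 had 11 counts in the Mof -/+ libraries and 12 in wild type, or 9.86 CPM (counts scaled to a common total of 1000000 per library; exact Poisson 95% interval 4.92 to 17.6) and 18.3 CPM (9.45 to 31.9), which does not resolve a difference of genotype at this depth. Called marker genes followed the labels in 3 of the 6 populations. Dntt and Flt3 were called higher in MPP4 (3.65 and 1.62 log2), Mpo in CMP (4.52) and Car1, Klf1 and Epor in MEP (4.88, 2.24 and 1.53). The population marker list (Hlf, Mecom, Procr, Dntt, Mpo, Car1, Klf1 and Epor, 6 of 8 tested) held no marker of MPP2 or MPP3, so it could not place these. None of its genes was called higher in HSC. Hlf, Mecom and Procr still had their highest means there, 460 ± 396, 63.8 ± 64.4 and 50.9 ± 41.3 CPM (SD, n = 6). Hlf differed between populations by limma's F test (adjusted p = 0.0255). Slamf1, the gene of the CD150 protein used to gate MPP2, had 0 counts in the 6 MPP2 libraries. Markers of mature cells were present in some sorts. The summed level of 13 mature neutrophil genes was 570, 759 and 29785 CPM in Mof -/+ MEP and 652, 33718 and 11536 CPM in wild-type MEP, and that of 9 mature B cell genes ran from 1567 to 7705 CPM in MPP4 and from 16.2 to 108 CPM in CMP. Their part in the levels below was not tested. These are sums over 15 cells, so fewer cells that express a gene and less RNA per cell cannot be told apart.

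Gata2 had the widest range of population means in CPM among the members. With both genotypes together, it ran from near absence in MPP4 to its highest mean in CMP. In Mof -/+ alone the MPP2 mean, 576 ± 366 CPM, was slightly above the CMP mean, 562 ± 97.6 CPM (SD, n = 3). In wild type alone CMP had the highest mean, 995 ± 415 CPM. The CMP libraries had 665, 471 and 549 CPM in Mof -/+ and 1472, 792 and 720 CPM in wild type. The MEP libraries had 415, 413 and 524 CPM in Mof -/+ and 387, 314 and 537 CPM in wild type. The MPP4 libraries had 25.3, 35.9 and 48.8 CPM in Mof -/+ and 0 CPM in each of the 3 wild-type libraries. Every CMP and MEP library therefore lay above every MPP4 library, a pattern whose share among all genes was not counted. The MPP4 values rest on 7 Gata2 counts among 215324 in Mof -/+ (pooled level 32.5 CPM, 95% interval 13.1 to 67.0) and on 0 among 94477 in wild type, which allows up to 31.8 CPM (3 counts over the group). Intervals and such limits cover counting error only.

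HSC, MPP2 and MPP3 lay between these extremes with libraries that disagreed. Gata2 was at 366, 0 and 326 CPM in Mof -/+ HSC and at 688, 456 and 0 CPM in wild-type HSC, where the 0 of Mof -/+ belongs to the library of 1577 counts, in which a single count is worth 634 CPM. The wild-type HSC library at 0 had 30569 counts. In MPP2 it was at 579, 208 and 941 CPM in Mof -/+ and at 0, 324 and 0 CPM in wild type, and in MPP3 at 494, 263 and 224 CPM in Mof -/+ and at 0, 0 and 288 CPM in wild type. The zeros of wild-type MPP2 and MPP3 all stand in libraries under 15000 counts.

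With both genotypes averaged with equal weight, Gata2 was higher in CMP than in the mean of the other 5 populations by 2.34 log2 (SE 0.52, 95% interval 1.3 to 3.38, limma adjusted p = 0.0126). It was lower in MPP4 by -2.81 log2 (SE 0.52, -3.85 to -1.78, limma adjusted p = 0.000410). These differences are on the scale of log2(rescaled count + 1), in which 1 rescaled count equals 24.3 CPM, and they understate changes at low levels. The MEP difference of 1.45 log2 (SE 0.52) missed the threshold in limma (adjusted p = 0.257) and passed in edgeR (1.36, adjusted p = 0.0124) and DESeq2 (1.14, adjusted p = 0.0150). In the order of mean levels over 6 libraries, 778 ± 359 CPM in CMP, 432 ± 85.0 in MEP, 342 ± 365 in MPP2, 306 ± 268 in HSC, 211 ± 188 in MPP3 and 18.3 ± 21.4 in MPP4 (SD, n = 6), the step between MPP3 and MPP4 was the only one between neighbours that exceeded the larger SD of the pair. The MPP4 call held in 36 of 36 fits that each left out 1 library. The CMP call held in 33 of 36 and was lost without Mof -/+ CMP replicate 1 (2.28, limma adjusted p = 0.0794), Mof -/+ CMP replicate 3 (2.34, 0.0635) or wild-type CMP replicate 1 (2.18, 0.0990).

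**Figure D1:**
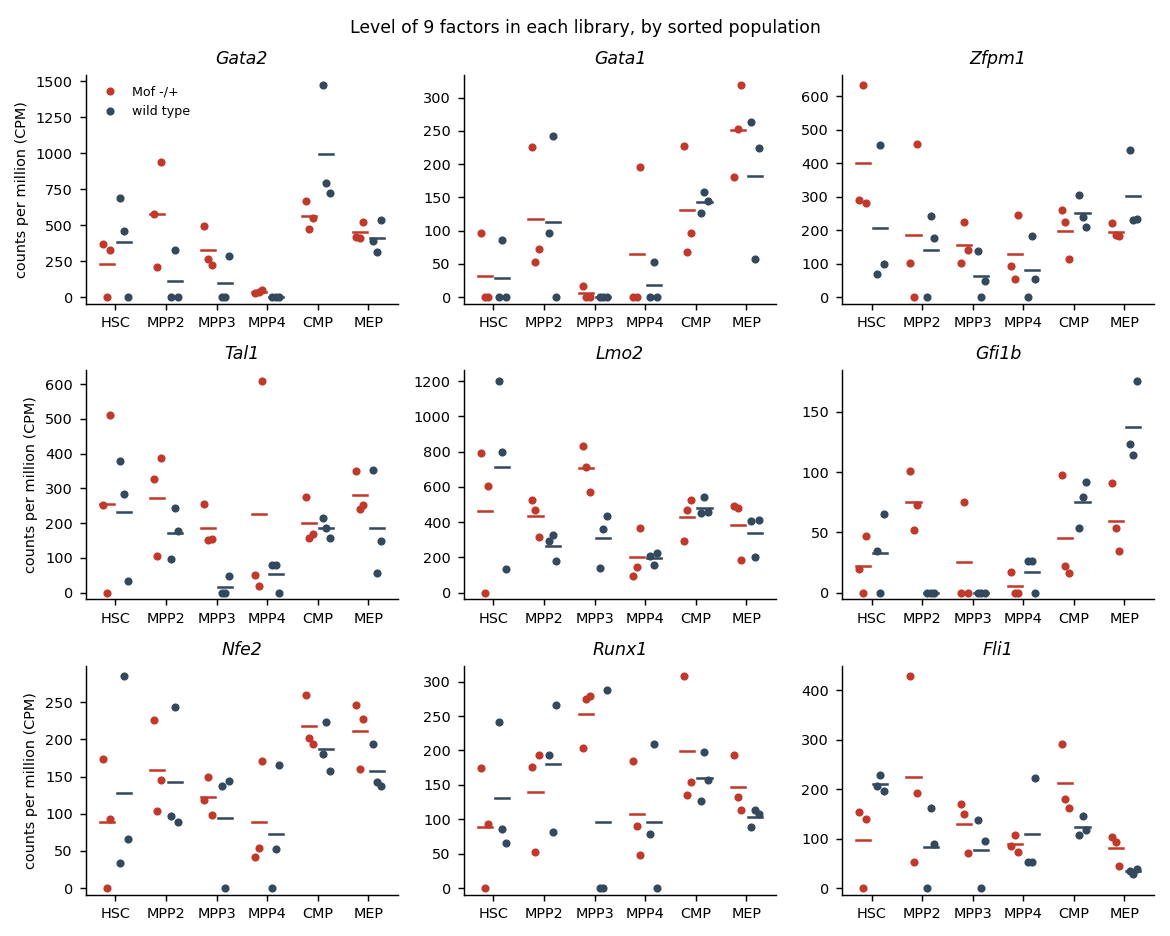
Level of the 9 factors in each library in CPM (y axis, linear, scaled per gene) by sorted population (x axis); points are libraries, short lines are means of 3 libraries, Mof -/+ in red left of wild type in dark blue. The mean of Gata2 over both genotypes is highest in CMP, whose libraries lie between 471 and 1472 CPM, and its MPP4 libraries reach at most 48.8 CPM; that of Gata1 is highest in MEP, with libraries between 57.1 and 319 CPM.

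Gata1 had its highest level in MEP and was close to absent from MPP3. The MEP libraries had 181, 253 and 319 CPM in Mof -/+ and 264, 57.1 and 225 CPM in wild type. The CMP libraries had 227, 67.3 and 97.0 CPM in Mof -/+ and 126, 158 and 144 CPM in wild type, which overlaps the MEP range in both genotypes. In MPP3, 1 count among 210269 was found in Mof -/+ (pooled level 4.76 CPM, 0.120 to 26.5) and 0 among 30907 in wild type, which allows up to 97.1 CPM. That limit lies below the pooled Gata1 level of wild-type MEP, 206 CPM (147 to 281), and at the lower bound of wild-type CMP, 144 CPM (97.4 to 206).

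MPP2 was the MPP population with most libraries positive for Gata1. It had 226, 52.0 and 72.4 CPM in Mof -/+ and 96.8, 243 and 0 CPM in wild type, so 5 of 6 libraries held at least 1 count, against 1 of 6 in MPP3 and 2 of 6 in MPP4. HSC had Gata1 counts in 2 of 6 libraries, at 96.4 CPM in Mof -/+ and 85.5 CPM in wild type. In MPP4 the positive libraries were at 195 CPM in Mof -/+ and 52.4 CPM in wild type. MPP2 minus the mean of MPP3 and MPP4 gave 1.67 log2 for Gata1 (SE 0.49, 95% interval 0.69 to 2.64), 1.26 for Gata2 (SE 0.58) and 1.35 for Tal1 (SE 0.53), with limma adjusted p = 0.273, 0.478 and 0.415. In that comparison 0 of 9 members passed, as did 0.00% of the 6501 genes tested. At an unadjusted p under 0.05 it held 3 members and 593 genes, and edgeR and DESeq2 called 0 members. Without the 6 shallow libraries, which leaves MPP2 with Mof -/+ alone, Gata2 passed.

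Gata1 rose in MEP against the mean of the other 5 populations by 1.89 log2 (SE 0.44, 95% interval 1.02 to 2.76, limma adjusted p = 0.0175). It was lower in MPP3 by -1.78 log2 (SE 0.44, -2.65 to -0.91, limma adjusted p = 0.0382). The CMP difference of 1.26 log2 (SE 0.44) did not pass (limma adjusted p = 0.288). The MEP call held in 32 of 36 fits and was lost without Mof -/+ MEP replicate 2 (1.88, limma adjusted p = 0.0728) or 3 (1.80, 0.111) and without wild-type MEP replicate 1 (1.72, 0.133) or 3 (1.77, 0.151). The MPP3 call was the least stable, with 25 of 36 fits past the threshold. It was lost without each single MPP3 library other than wild-type replicate 3 (limma adjusted p from 0.0588 to 0.220) and without Mof -/+ MPP2 replicate 1, Mof -/+ CMP replicate 1, or wild-type HSC replicate 2, MPP4 replicate 2, CMP replicate 2 or MEP replicate 3 (0.0503 to 0.0567). Neither edgeR (adjusted p = 0.119) nor DESeq2 (0.160) called Gata1 in MPP3.

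Since CMP and MEP of a genotype come from the same pool, the balance of the GATA factors can be compared between them within libraries, free of the library total. Gata1 made up 30.4%, 38.0% and 37.8% of the Gata1 and Gata2 counts in Mof -/+ MEP and 40.5%, 15.4% and 29.5% in wild-type MEP. It made up 25.5%, 12.5% and 15.0% in Mof -/+ CMP and 7.87%, 16.7% and 16.7% in wild-type CMP. In Mof -/+ every MEP library lay above every CMP library, and in wild type the ranges overlapped through MEP replicate 2, whose share rests on 2 Gata1 counts of 13 (exact binomial 95% interval 1.92% to 45.4%). Among the MEP and CMP libraries, that library also had the highest summed level of mature neutrophil genes, 33718 CPM, whose part in its share was not tested.

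The share averaged 31.9% ± 9.25 in MEP and 15.7% ± 5.82 in CMP (SD, n = 6 each), a difference of 16.3 percentage points (two-sided exact permutation of the population labels within each genotype, 400 arrangements, p = 0.0150, where the smallest possible is 0.01). It was 17.8 points in Mof -/+ and 14.7 points in wild type, where 3 libraries against 3 cannot pass the threshold (exact permutation p = 0.1 and 0.300, the smallest possible being 0.1 and 0.200). Leaving out 1 library at a time gave 13.2 to 19.5 points. This measure was chosen after the values were seen, so its p-values describe these libraries and are no independent test. It was the single comparison of its kind. Summed over libraries, Gata1 was 101 of 298 counts in MEP, or 33.9% (28.5% to 39.6%), and 62 of 410 in CMP, or 15.1% (11.8% to 19.0%). In MPP2 it was 19.5% (17 of 87 counts, 11.8% to 29.4%), above the CMP value with overlapping intervals, in HSC 11.4% (8 of 70) and in MPP3 1.37% (1 of 73), whereas MPP4 had only 17 counts of both genes together and gives no usable share. The share says nothing of the protein amounts, nor of which gene has more RNA per cell.

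**Figure D2:**
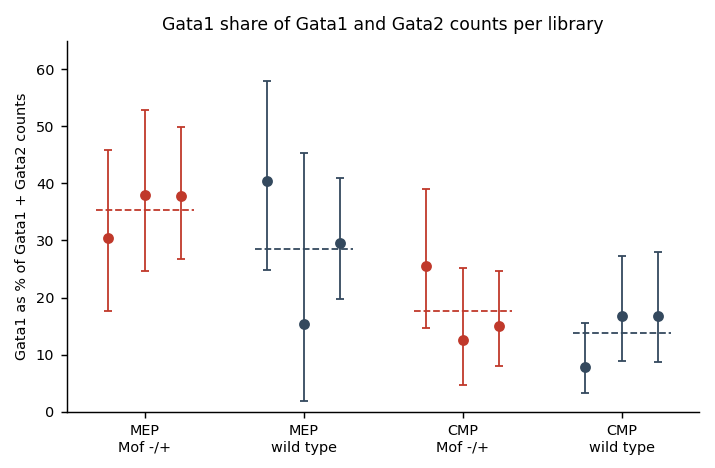
Gata1 counts as a percentage of Gata1 plus Gata2 counts (y axis) in each MEP and CMP library (x axis); points are libraries with exact binomial 95% intervals, dashed lines are means of 3 libraries, Mof -/+ in red and wild type in dark blue. The MEP libraries range between 15.4% and 40.5% and the CMP libraries between 7.87% and 25.5%.

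For Zfpm1 and Tal1, of the Gata1 partner complex, no difference between populations passed the test in the fit reported. Without the 6 shallow libraries, an alternative chosen after seeing the data, limma called Tal1 in MPP4 against the other 5 populations. With the deposited size factors the F test called both genes, as it did all 9 members. Zfpm1, the Gata1 cofactor, was at 220, 186 and 182 CPM in Mof -/+ MEP and at 440, 229 and 234 CPM in wild-type MEP. In HSC it was at 289, 634 and 280 CPM in Mof -/+ and at 68.8, 456 and 98.1 CPM in wild type, where the 634 CPM is 1 count in the shallowest library. Its population means ran from 105 ± 91.3 CPM in MPP4 to 304 ± 215 CPM in HSC (SD, n = 6), and no step between neighbours in that order exceeded the larger SD. Tal1, the helix-loop-helix member of the complex, ran from 101 ± 102 CPM in MPP3 to 243 ± 198 CPM in HSC with the same outcome. A single library, Mof -/+ MPP4 replicate 3, had 610 CPM of Tal1, against 50.6 and 17.9 CPM in the other Mof -/+ MPP4 libraries, and it was also the library with the highest Gata1 level of MPP4 (195 CPM) and the highest Zfpm1 level (244 CPM).

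Lmo2, the bridging protein, was counted in 35 of 36 libraries, more than any other member. It was at 790, 0 and 606 CPM in Mof -/+ HSC and at 1203, 798 and 131 CPM in wild-type HSC. In MPP4 it was at 92.7, 144 and 366 CPM in Mof -/+ and at 209, 157 and 222 CPM in wild type. The MPP4 mean, 198 ± 94.4 CPM, lay below that of MPP2, 350 ± 127 CPM (SD, n = 6), by more than the larger SD. Its MPP4 difference was -0.94 log2 (SE 0.44, limma adjusted p = 0.461), and it passed in edgeR (-1.18, adjusted p = 0.0185), in DESeq2 (-1.09, adjusted p = 0.0381) and in limma without the 6 shallow libraries (-1.23, adjusted p = 0.00300).

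Gfi1b, the repressor of the red cell and platelet lineages, had 92 counts in all, the fewest of the 9. In MEP it was at 90.7, 53.3 and 34.2 CPM in Mof -/+ and at 123, 114 and 176 CPM in wild type. In CMP it was at 97.4, 22.4 and 16.2 CPM in Mof -/+ and at 53.9, 79.2 and 91.6 CPM in wild type. Wild-type MEP thus lay above all CMP libraries, and Mof -/+ MEP overlapped them. How many of all genes were separated in this way was not counted. Its MEP difference of 1.34 log2 (SE 0.35, 95% interval 0.64 to 2.04) stood just outside the threshold (limma adjusted p = 0.0596) and passed under TMM scaling (1.5, adjusted p = 0.0133), with a pseudocount of 5 (0.54, adjusted p = 0.0204) and without the filter on low values (1.34, adjusted p = 0.0448).

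Fli1, the factor tied to the megakaryocytic fate, was the member with its lowest level in MEP. It was at 104, 93.2 and 45.6 CPM in Mof -/+ MEP and at 35.2, 28.6 and 39.1 CPM in wild-type MEP. In CMP it was at 292, 180 and 162 CPM in Mof -/+ and at 108, 145 and 118 CPM in wild type. All 6 MEP libraries lay below all 6 CMP libraries, a pattern seen in 0.431% of the genes tested and in no other member. MEP minus CMP was -1.25 log2 (SE 0.55, 95% interval -2.35 to -0.15, limma adjusted p = 1.0). Against the other 5 populations its MEP difference was -0.78 log2 (SE 0.43, limma adjusted p = 0.513), and it passed in DESeq2 (-1.38, adjusted p = 0.0190) and in limma without the 6 shallow libraries (-1.06, adjusted p = 0.0387). The counts behind this are 26 in MEP and 80 in CMP.

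Nfe2 and Runx1 did not pass the test between populations (limma F test, adjusted p = 0.273 and 0.735). Without the 6 shallow libraries, limma called Nfe2 in MPP4 against the mean of the other 5 populations. Nfe2, the NF-E2 subunit, had population means between 80.9 ± 70.6 CPM in MPP4 and 203 ± 35.8 CPM in CMP (SD, n = 6), and its CMP libraries were at 260, 202 and 194 CPM in Mof -/+ and at 180, 224 and 157 CPM in wild type. Runx1, a factor of stem cells and megakaryocytes, had means between 102 ± 80.7 CPM in MPP4 and 180 ± 67.9 CPM in CMP. Its CMP libraries were at 308, 135 and 154 CPM in Mof -/+ and at 126, 198 and 157 CPM in wild type. No step between neighbouring populations exceeded the larger SD for Nfe2, Runx1, Gfi1b, Fli1 or Gata1.

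Over all 6 populations, 3 of the 9 members differed by limma's F test, against 4.14% of the 6501 genes tested: Gata2 (adjusted p = 0.000152), Gata1 (0.000235) and Gfi1b (0.0224). The smallest adjusted p among the other 6 was that of Zfpm1 (0.195). edgeR's F test also called 3 of the 7 members it tested, Gata2 (adjusted p = 8.69e-06), Gata1 (0.00427) and, in place of Gfi1b, which it did not test, Lmo2 (0.0177). It called 479 of the 1633 genes it tested, a far larger share than limma's. In the comparisons of single populations with the mean of the other 5, 4 calls fell on Gata2 and Gata1 as given above. Of the 9 members, 1 was called in MEP (0.446% of all genes tested), 1 in CMP (0.446%), 1 in MPP4 (1.23%) and 1 in MPP3 (0.400%). In HSC (0.508%) and MPP2 (0.0615%) limma, edgeR and DESeq2 called 0 members. At an unadjusted p under 0.05 limma held 1 member and 794 genes in HSC and 0 members and 824 genes in MPP2, of 6501. The median difference of the 9 members was 0.68 log2 in both MEP and CMP, where the medians of all genes tested were 0.18 and 0.25, and -0.87 log2 in MPP4 (all genes 0.06). With wild-type libraries alone 0 of these calls passed, and with Mof -/+ libraries alone 1 did (Gata2 in MPP4).

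In MEP minus CMP, limma called 0 of 9 members, edgeR 0 of 7 and DESeq2 0 of 8. The only gene that limma called of those tested (0.0154%) was Car1, the carbonic anhydrase of early red cell precursors, at 2.66 log2 (SE 0.51, limma adjusted p = 0.0172), while edgeR called 11 genes and DESeq2 18. Fli1 was the only member with an unadjusted p under 0.05 in limma, as had 96 of 6501 genes. The spread of each gene was shared with the shallow libraries of other populations, so limma resolves little between these deeper groups. The differences were 0.55 log2 for Gfi1b (95% interval -0.35 to 1.45), 0.53 for Gata1 (-0.60 to 1.65), -0.74 for Gata2 (-2.08 to 0.60) and -0.42 for Runx1 (-1.57 to 0.72). For Zfpm1 and Tal1 they were 0.12 and 0.09, and both signs turned under some alternatives.

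**Figure D3:**
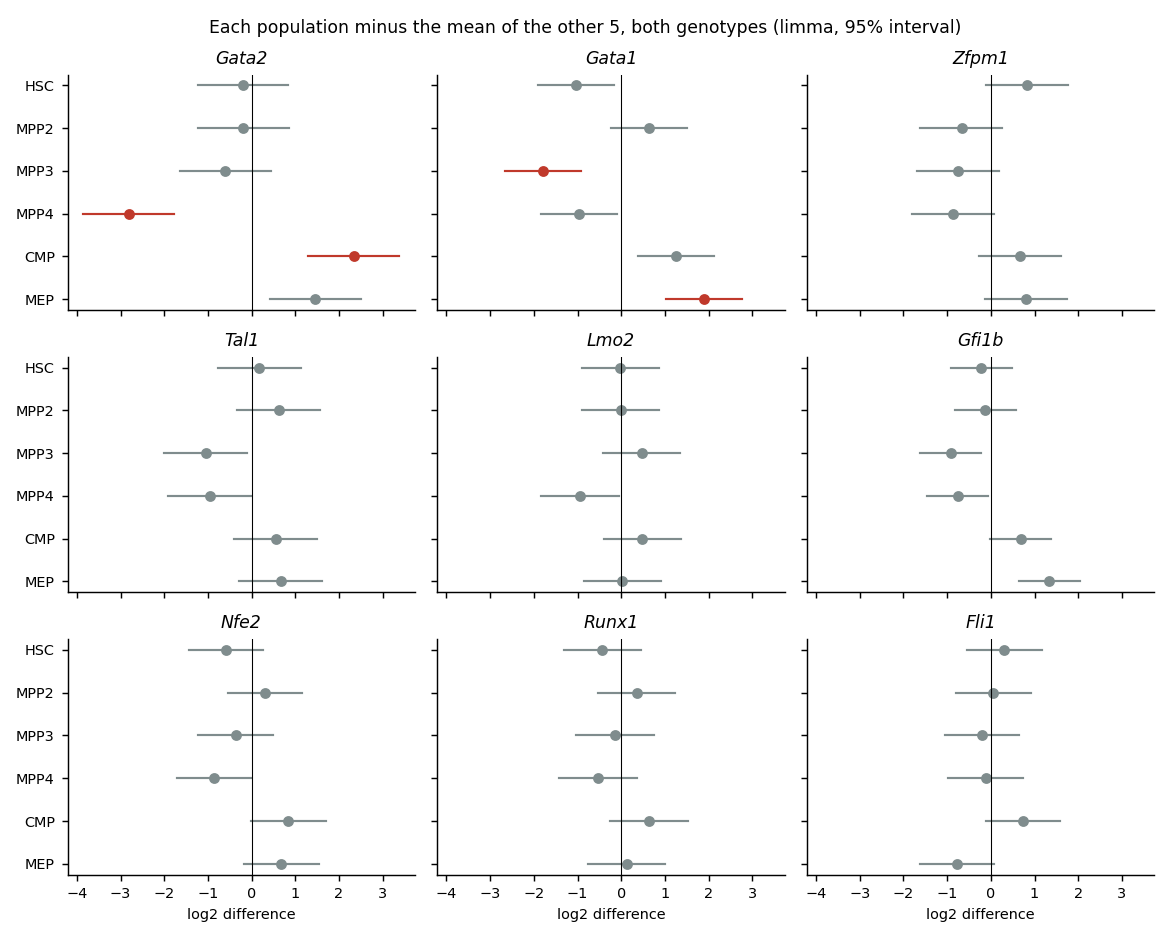
Difference between each population (y axis) and the mean of the other 5, genotypes averaged, on the log2 scale (x axis) for the 9 factors; points are limma estimates, bars 95% intervals, and red marks an adjusted p under 0.05. The 4 red points are Gata2 in MPP4 (-2.81) and CMP (2.34) and Gata1 in MPP3 (-1.78) and MEP (1.89).

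Other genes of the erythroid and megakaryocytic programmes were given from lists chosen with earlier results of these data known. Of 24 erythroid genes 19 were tested, and in MEP 5 were called higher and 1 lower. The higher ones were Car1 (4.88 log2, SE 0.40), Aqp1, a water channel of the red cell membrane (2.55, SE 0.52), Ermap, a red cell adhesion protein (2.45, SE 0.52), Klf1, the erythroid Krüppel-like factor (2.24, SE 0.38), and Epor, the erythropoietin receptor (1.53, SE 0.36). The lower one was the adult beta-globin gene listed as Beta-s (-4.77, SE 0.74), which was also lower in CMP (-4.89) and higher in MPP4 (4.28) and MPP2 (3.72). The median of the 19 genes in MEP was 0.05 log2, against 0.18 over all genes tested. Car1 was higher in CMP (1.69, SE 0.40) and lower in HSC (-2.42), MPP3 (-2.33) and MPP4 (-2.02), and Aqp1 was lower in MPP3 (-2.56).

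Of 22 megakaryocyte genes 8 were tested. In CMP, where the Gata2 mean over both genotypes was highest, 2 were called higher, Pf4, a platelet chemokine (2.44 log2, SE 0.47), and Itga2b, the platelet integrin CD41 (2.02, SE 0.49). In MPP4, where Gata2 was lowest, Itga2b (-2.10, SE 0.49), Pf4 (-1.82, SE 0.47) and F2r, the thrombin receptor (-1.73, SE 0.43), were called lower. In MEP 0 of 8 were called. Mast cell and basophil genes, of which 3 of 12 were tested, gave Cpa3, a mast cell carboxypeptidase (2.20, SE 0.48), and Hdc, the histamine-forming enzyme (1.92, SE 0.38), as higher in CMP and Il1rl1, the IL-33 receptor (1.53, SE 0.37), as higher in MEP. The summed level of the 12 mast cell and basophil genes was 428 to 617 CPM in Mof -/+ CMP and 275 to 1650 CPM in wild-type CMP, against 16.9 to 97.6 CPM in Mof -/+ MPP4 and 0 to 183 CPM in wild-type MPP4. The defining mast cell genes Tpsb2 and Cma1 and the protease gene Gzmb were at 0 in all libraries. The part of mast cell precursors in the Gata2 level of CMP was not tested.

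Of 6 myeloid factors, 5 were tested, and Cebpa, the factor of granulocyte fate, was called higher in CMP (1.80 log2, SE 0.33). Of 22 partner and related genes of the 9 factors 20 were tested, among them Ldb1, Lyl1, Cbfa2t3, Erg and Etv6. Between single populations and the rest 0 of 20 were called, and by the F test 1, the Runx family member Runx3 (adjusted p = 0.00792), against the 4.14% of all genes.

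The genes whose pattern over the 12 group means was most like that of a member were read among 2690 genes of sufficient level. For Gata2 these were Cd63 (Pearson r = 0.98), Ptpn12 (0.96) and Apoe (0.95). For Gata1 they were Aqp1 (0.96), Vamp5 (0.92) and Car1 (0.92). For Nfe2 they were Frat2 (0.93), Cbfa2t3 (0.92) and Larp4 (0.92), and for Runx1 Tm9sf3 (0.95), Nisch (0.95) and Cbfa2t3 (0.93). Zfpm1 was most like Magt1 (0.93), Cox7b (0.91) and Cuta (0.91), Tal1 most like Tmco1 (0.95), BC005561 (0.93) and Rif1 (0.92), and Lmo2 most like Neat1 (0.89), Rab38 (0.87) and Nfic (0.85). Fli1 had no gene above 0.83 (Uba7, followed by Arhgef2 and Csnk1a1, both 0.79). Among the members, Gata2 correlated with Nfe2 at 0.84, with Gfi1b at 0.78 and with Fli1 at 0.39, and Gfi1b with Fli1 at 0.11. These are descriptions over 12 group means that share library depth, with the highest values picked from many genes.

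Between the genotypes, no member differed by the test, averaged over populations or within any of them. Averaged over the 6 populations, Mof -/+ minus wild type was 0.99 log2 for Gata2 (SE 0.39, 95% interval 0.22 to 1.76, limma adjusted p = 0.338) and 0.76 for Tal1 (SE 0.35, 0.06 to 1.47, limma adjusted p = 0.435). The Gata2 value ranged from 0.34 (limma adjusted p = 0.761), without the 6 shallow libraries, which averages 5 populations as wild-type MPP2 is lost, to 2.15 (limma adjusted p = 0.161), with a pseudocount of 0.1. The average difference was 0.44 for Zfpm1, 0.39 for Runx1, 0.37 for Fli1, 0.26 for Gata1, 0.25 for Nfe2, 0.08 for Lmo2 and 0.05 for Gfi1b, each within 1.5 SE of 0, and the signs of Lmo2 and Gfi1b turned under some alternatives. The intervals allow up to 0.91 log2 higher for Gata1 and 1.14 for Zfpm1, so a difference of that size is not resolved. Of the genes tested, 0.0769% passed on average, and 679 genes and 2 members had an unadjusted p under 0.05. edgeR and DESeq2 called 0 of the 7 members each tested. The median of the 9 members was 0.37 log2, against 0.13 over all genes tested. The interaction of genotype with population called 0 members and 0.0154% of genes. At an unadjusted p under 0.05 it held Gata2 (limma adjusted p = 0.437) and Gfi1b (limma adjusted p = 0.386) and 627 of 6501 genes, and edgeR called 0 members.

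The largest Gata2 differences were in MPP2 and MPP3, where the wild-type libraries were shallow. Those of HSC, MPP4, CMP and MEP were -0.44, 1.31, -0.74 and 0.14 log2 (SE 0.95 each). In MPP2 the difference was 3.12 log2 (SE 0.95, 95% interval 1.23 to 5.01, limma adjusted p = 0.0903) and in MPP3 2.55 (SE 0.95, 0.66 to 4.44, adjusted p = 0.130). As pooled levels Gata2 had 657 CPM (66 counts, 508 to 836) in Mof -/+ MPP2 and 118 CPM (4 counts, 32.1 to 302) in wild-type MPP2, and 314 CPM (66 counts, 243 to 399) in Mof -/+ MPP3 and 194 CPM (6 counts, 71.2 to 423) in wild-type MPP3. The pooled intervals are thus apart in MPP2 and overlap in MPP3. In MPP3, Tal1 (2.56, SE 0.87, adjusted p = 0.103) and Runx1 (2.27, SE 0.81, adjusted p = 0.117) had fitted differences of like size in limma, and in MPP2 Gfi1b did (2.0, SE 0.64, adjusted p = 0.114). On the counts, edgeR and DESeq2 gave smaller MPP3 differences for Gata2 (1.07 and 0.88) and Runx1 (0.75 and 0.47), and 2.68 and 2.05 for Tal1, which had 1 count in wild-type MPP3. The median of all genes tested was itself 0.68 log2 in MPP3 and 0.28 in MPP2. Mean totals were 70090 counts in Mof -/+ MPP3 and 10302 in wild-type MPP3, and 33470 in Mof -/+ MPP2 and 11322 in wild-type MPP2, and the Gata2 average without the shallow libraries is given above. Summed markers of mature cells did not overlap between genotypes here. The neutrophil genes ran from 671 to 2213 CPM in Mof -/+ MPP3 and from 4703 to 21084 CPM in wild-type MPP3. The B cell genes ran from 796 to 1535 CPM in Mof -/+ MPP2 and from 3194 to 7880 CPM in wild-type MPP2. Of single genes, 1.82% in MPP3 and 5.01% in MPP2 lay lower in every Mof -/+ library. Limma called 0 of 11 neutrophil genes in MPP3 and 0 of 8 B cell genes in MPP2. The wild-type MPP3 neutrophil sum of replicate 2 rests on 13 counts. The part of these markers in the differences of the members was not tested.

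Of the genes tested, 0.385% passed in MPP2, 0.492% in MPP3, 0.0154% in HSC and 0.00% in MPP4, CMP and MEP, with 0 members in each. Unadjusted p under 0.05 held for 2 members in MPP2, 3 in MPP3 and 0 in HSC, MPP4, CMP and MEP. Of the 6501 genes it held for 961 in MPP2, 1344 in MPP3, 696 in HSC, 194 in MPP4, 25 in CMP and 47 in MEP. edgeR and DESeq2 called 0 members in every population. Under TMM scaling, which moves the median of all genes to 1.06 log2 in MPP3 and 0.56 in MPP2, 4 passed: Gata2 in MPP2 and MPP3 and Tal1 and Runx1 in MPP3. Without Mof -/+ HSC replicate 2, Gata2 in MPP2 and Tal1 in MPP3 passed, without wild-type MPP2 replicate 2 Gata2 in MPP2 passed, and without wild-type MPP3 replicate 3, the deepest of its group, Gata2, Runx1 and Tal1 in MPP3 passed. The share of all genes passing under TMM scaling or in these fits was not counted, so these calls have no background beside them.

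In the deeper CMP and MEP libraries the direction differed by gene. Gata2 was lower in every Mof -/+ CMP library (471 to 665 CPM) than in any wild-type CMP library (720 to 1472 CPM), a pattern held by 4.91% of the genes tested, with a difference of -0.74 log2 (SE 0.95, 95% interval -2.63 to 1.15, limma adjusted p = 1.0). The pooled levels were 550 CPM (466 to 645) in Mof -/+ CMP and 948 CPM (820 to 1090) in wild-type CMP. Fli1 was higher in every Mof -/+ CMP library (162 to 292 CPM) than in any wild-type one (108 to 145 CPM), as were 7.64% of genes, and likewise in MEP (45.6 to 104 against 28.6 to 39.1 CPM), as were 6.78% of genes. Zfpm1 (182 to 220 CPM in Mof -/+ and 229 to 440 CPM in wild type) and Gfi1b (34.2 to 90.7 and 114 to 176 CPM) were lower in every Mof -/+ MEP library, a pattern held by 5.21% of genes. None of these differences passed the test. The limma fit gives each gene a single spread shared by all libraries, shallow ones included, so it resolves little in CMP and MEP. At an unadjusted p under 0.05 it held 25 genes in CMP and 47 in MEP, of 6501. A missing call there is therefore no sign of equal levels. Among the listed genes, F2r was higher in Mof -/+ MPP2 (4.03 log2, SE 0.78, limma adjusted p = 0.00688) and Beta-s lower in Mof -/+ HSC (-7.97, SE 1.35, limma adjusted p = 0.000993).

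The same separation was found for Fli1 in HSC, where Mof -/+ libraries (0 to 154 CPM) lay below wild type (196 to 228 CPM), as in 6.26% of genes. Gata2 in MPP4 was above wild type in every Mof -/+ library (25.3 to 48.8 against 0 CPM), as in 6.00% of genes, and there the wild-type limit of 31.8 CPM lies within the interval of the pooled Mof -/+ level (13.1 to 67.0 CPM). Gfi1b in MPP2 was counted in the 3 Mof -/+ libraries (52.0 to 101 CPM) and at 0 in the 3 wild-type ones, as 9.49% of genes were separated there, and the wild-type limit of 88.3 CPM lies above the pooled Mof -/+ level of 79.7 CPM. In MPP3, Tal1 (150 to 255 against 0 to 48.0 CPM) and Lmo2 (573 to 834 against 137 to 432 CPM) were higher in every Mof -/+ library, a pattern held by 21.3% of the genes tested, so that 2 of 9 members is near the background. Gata1, Nfe2 and Runx1 were separated by genotype in no population.

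**Figure D4:**
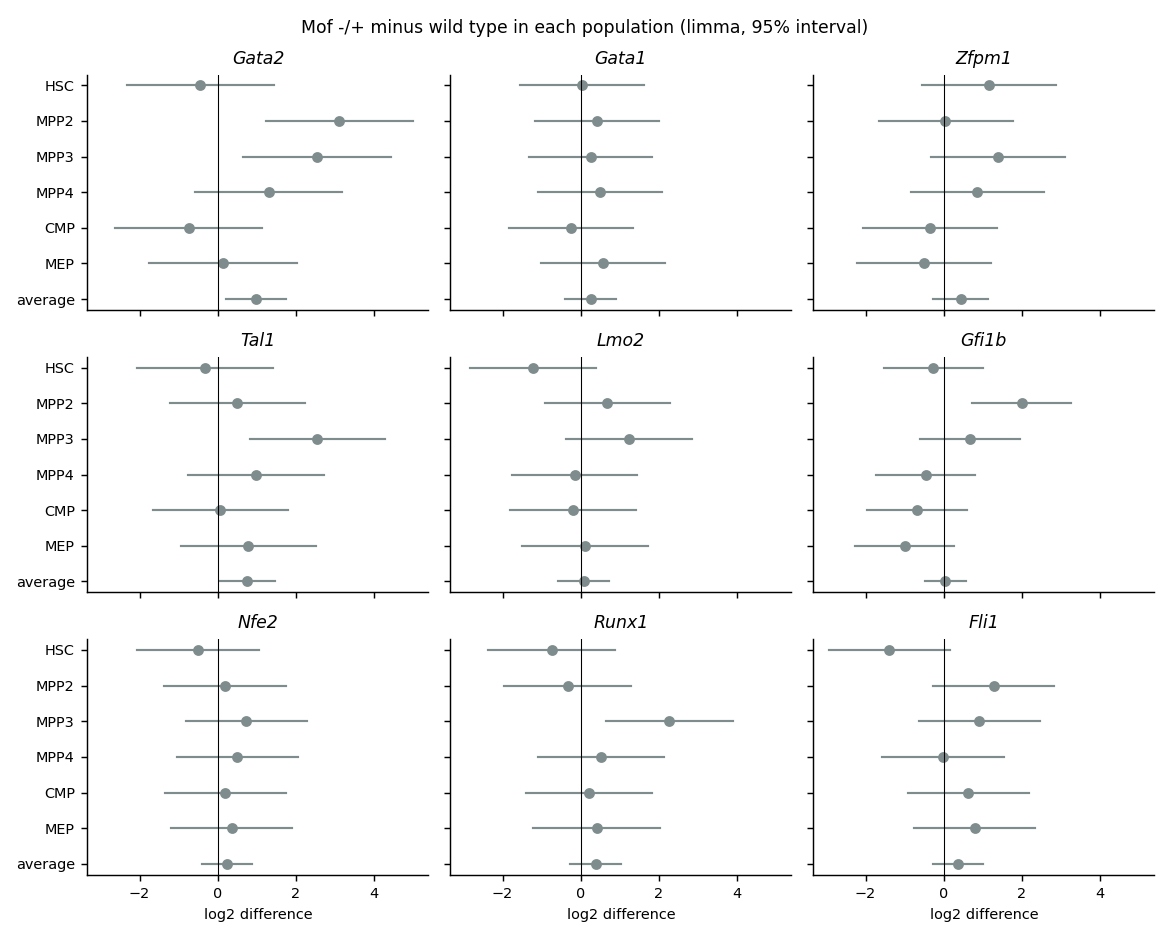
Mof -/+ minus wild type in each population and on average (y axis) on the log2 scale (x axis) for the 9 factors; points are limma estimates and bars 95% intervals, all grey since no adjusted p was under 0.05. The farthest points from 0 are Gata2 in MPP2 (3.12), Tal1 in MPP3 (2.56) and Gata2 in MPP3 (2.55).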

How the data were processed

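Gene levels were measured by CEL-Seq2 in 36 libraries of 6 populations and 2 genotypes. The deposited values are a signal: counts that the authors divided by a size factor per library, as read from the values, of which 100% were whole multiples of the library's smallest positive value (within 0.01 counts). Reads were aligned with BWA 0.6.2-r126 to mm10, per the submitters' processing notes; the counter, its use of strand and of molecular identifiers, and the annotation stay unnamed (not given in the sources used here). Counts were recovered by that division, without the 92 spike-ins. The wild-type MEP table has values of 92 spike-ins without their names, so its genes were named by position in the wild-type HSC table; against wild-type CMP the rank correlation over genes (no independent replicates) was 0.3520 as deposited and 0.9018 after that.

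As the files hold scaled signal and not counts, the test was limma on log values, as planned for that case. Counts were rescaled to the median total of 41227, and limma 3.58.1 (R 4.3.3, intensity trend) was fitted to log2(rescaled count + 1) over 6501 genes with a mean of at least 1, with 12 group coefficients and Benjamini-Hochberg adjustment at 0.05; all 9 members were tested. edgeR 4.0.16 (1633 genes, 7 members) and DESeq2 1.42.0 on recovered counts were alternatives, beside other scalings, pseudocounts, filters and sets of libraries. The fits were tested on simulated data. Exact intervals and permutations used scipy 1.17.1. Genes named were the members, Kat8, up to 4 called genes per list and comparison with the largest difference, and the 3 genes most like each member with at least 100 counts, beside genes that gate or mark the populations. Members and lists were chosen with earlier results of these data known.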

Additional observations from a re-analysis of the deposited data

Results flagged for a closer look

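For 3 members, every Mof -/+ library lay on one side of wild type in one population and on the opposite side in another. The difference between such a pair of populations was not tested for itself; the interaction over all 6 populations gave limma adjusted p = 0.437 for Gata2, 0.386 for Gfi1b and 0.689 for Fli1. Gata2 was higher in Mof -/+ than in wild type in MPP4 (fitted difference 1.31 log2, against wild-type libraries at 0, so the size depends on the added 1) and lower in CMP (-0.74 log2). Gfi1b was higher in Mof -/+ MPP2 (2.0 log2, again against wild-type libraries at 0) and lower in Mof -/+ MEP (-0.99 log2). Fli1 was higher in Mof -/+ CMP (0.64 log2) and MEP (0.80 log2) and lower in Mof -/+ HSC (-1.39 log2), where the library of 1577 counts had 0 Fli1 counts. Such separation in a single direction was held by 1.03% to 21.3% of all genes tested, depending on the population and direction. The share of all genes separated in opposite directions in different populations was not counted, so the 3 members have no background beside them.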

How the results depend on the processing

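No paired analysis was possible because columns carry running barcode numbers, none of them common to 2 groups. Genotype differences called 0 members on average and by interaction under each alternative run. Within single populations 4 passed under TMM scaling and 0 to 3 when 1 library was left out. Members called by the F test were 3 in the fit reported, 9 with the deposited factors, 1 at a mean of at least 5 (7 members tested), 1 in wild type alone and 2 to 3 leaving out 1 library. Population calls, 4 in the fit reported, became 28 with the deposited factors, under which the median of all genes was 1.10 log2 in CMP and -0.70 in HSC, 1 with a pseudocount of 0.1, 2 without the filter, 2 at a mean of at least 5, 7 without the 6 shallow libraries (an alternative chosen after seeing the data), 0 in wild type alone, 1 in Mof -/+ alone and 2 to 5 leaving out 1 library (2 without wild-type MEP replicate 3, Gata2 in MPP4 and CMP). Beyond the call of Gata2 in MPP4, which passed in 10 of 10 settings with both genotypes, Gata2 in CMP passed in 8 of 10 (adjusted p up to 0.128), Gata1 in MEP in 7 of 9 (up to 0.135) and Gata1 in MPP3 in 3 of 9 (up to 0.160). MPP2 minus MPP3 and MPP4 called 1 member without the shallow libraries. For the alternative limma fits the share of all genes called was not counted, so a rise in member calls may be a general one.

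Signs turned for Lmo2, Mof -/+ minus wild type (-0.08 with a pseudocount of 0.1, -0.07 to 0.35 leaving out 1 library), for Gfi1b (-0.14 with deposited factors, -0.02 with a pseudocount of 5, -0.26 without shallow libraries, -0.06 to 0.12 leaving out 1 library), and in MEP minus CMP for Zfpm1 (-0.05 with deposited factors, -0.04 to 0.22 leaving out 1 library) and Tal1 (-0.08 with deposited factors, -0.27 in wild type alone, -0.18 to 0.37 leaving out 1 library). The cause was not tested. Without the shallow libraries alone, wild-type MPP2 is lost and its contrasts have no value. Depth limits wild-type MPP2 and MPP3 most, where 3 counts over the group are 88.3 and 97.1 CPM.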
